A study of Mus musculus with 10 samples.

Results

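Glycogen metabolism in liver is represented here by 9 genes, taken by symbol from the array table with the brightest probe set standing for each gene. They are 9 of 22180 genes that have a probe set with a single gene symbol. Ppp1r3b, Ppp1r3c, Ppp1r3d and Ppp1r3g encode subunits that target protein phosphatase 1 (PP1) to glycogen. Gys2, Ugp2, Gbe1, Pygl and Phka2 encode enzymes of glycogen synthesis and breakdown or their regulators. All 9 are protein-coding genes of the mouse RefSeq annotation. Rows were chosen by brightness, the mean log2 intensity over the 10 arrays. The gene names themselves were picked with earlier results of these data in view. The choice of row mattered for Ppp1r3b alone, where a row with a mean of 9.72 was used and a dimmer row with a mean of 7.92 was left aside.

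The samples were livers of female BALB/cByJ mice, 3 months old, in 4 groups. These were Pml knockout mice with food removed for 6 h (fasted knockout, 3 arrays) and Pml wild type mice treated in the same way (fasted wild type, 3 arrays). The others were Pml knockout mice fed ad libitum (fed knockout, 2 arrays) and Pml wild type mice fed ad libitum (fed wild type, 2 arrays). The protocol text on food removal is attached to every sample, fed ones included, so fed and fasted follow the sample titles. Pml encodes the protein that organises PML nuclear bodies, and the comparisons ask how its loss and a short fast change liver transcripts. The sources used here do not state the deleted sequence or the cells in which the gene was deleted. They also do not state whether each array is a separate mouse, so a p-value here reflects array-to-array spread that may be technical. RNA was hybridised to Affymetrix Mouse Gene 2.1 ST arrays, whose probes lie along the exons of a transcript. Values are log2 of the deposited normalized intensity.

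Liver stores glucose as glycogen after a meal and releases it between meals. Ugp2 makes UDP-glucose, the glucose donor, Gys2 is the liver glycogen synthase that adds glucose to the chain, and Gbe1 introduces the branches. Pygl, the liver glycogen phosphorylase, releases glucose units and is switched on by phosphorylase kinase, of which Phka2 is the liver regulatory alpha subunit. PP1 brought to the glycogen particle by its targeting subunits removes the phosphates, which activates the synthase and switches off the phosphorylase. Ppp1r3b is the main targeting subunit of liver, Ppp1r3c (also called PTG) acts in several tissues, and Ppp1r3g has been described in mouse liver as a subunit whose transcript is more abundant in fasting.

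Array medians lay between 43.5 and 47.5 intensity units. Pml, the knocked-out gene, lay between 6.05 and 6.91 on the 5 knockout arrays and between 7.50 and 8.37 on the 5 wild type arrays, by a single probe set of unstated place relative to the deletion. All 6 hepatocyte markers passed the filter on dim probe sets described below, while Ckm and Mylpf (skeletal muscle), Cidea, Lep and Retn (adipocyte) and Prss1 and Ins2 (pancreas) lay below the array median on all 10 arrays. The fasted knockout arrays did not form a uniform group. Dbp, a clock output gene, was 10.05, 9.80 and 6.00 in fasted knockout replicates 1, 2 and 3, between 6.07 and 6.64 in fasted wild type, 9.88 and 10.02 in fed knockout and 9.50 and 9.58 in fed wild type. Arntl, the clock activator BMAL1, was 4.60, 4.53 and 8.87 in the same 3 arrays and between 9.04 and 9.29 in fasted wild type, 5.72 and 6.02 in fed knockout and 7.50 and 7.10 in fed wild type. Fasted knockout replicates 1 and 2 therefore lay with the fed arrays for Dbp and below them for Arntl, and replicate 3 lay close to fasted wild type for both, and values without them are given where leaving them out ended a call or moved a value by a wide margin. The time of day of collection is not given. In the limma fit described below, fasted minus fed wild type was -3.11 for Dbp (adjusted p = 0.0455) and 1.865 for Arntl (adjusted p = 0.237). Nr1d1 and Cry1, clock genes too, differed by -3.115 (adjusted p = 0.00132) and 2.86 (adjusted p = 0.00124). That comparison does not separate food removal from clock state, and the part of each was not tested.

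The promoters printed here show the sequence next to genes whose values separate the arrays: Ppp1r3g, low on the fed wild type arrays alone, Ppp1r3c, low on fasted knockout replicates 1 and 2, and Phka2, low on the fasted wild type arrays. Each is the stretch of 250 bases before the gene's annotated start, from RefSeq (build GRCm38.p6), written 5′ to 3′ on the gene's strand. Capitals mark matches to any of 5 motifs searched on both strands: CACGTG (the E-box bound by clock activators), TGACG (a half-site of cAMP response elements), AGGTCA (a nuclear receptor half-site), GTAAACA (forkhead) and TATAAA (a core promoter element).
Ppp1r3g (chr13:35967656-35967905, plus strand): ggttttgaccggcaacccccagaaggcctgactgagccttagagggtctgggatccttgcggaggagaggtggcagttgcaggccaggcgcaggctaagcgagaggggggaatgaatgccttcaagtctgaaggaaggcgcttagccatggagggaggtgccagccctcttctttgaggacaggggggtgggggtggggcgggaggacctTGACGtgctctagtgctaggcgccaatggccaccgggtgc
Ppp1r3c (chr19:36736605-36736854, minus strand): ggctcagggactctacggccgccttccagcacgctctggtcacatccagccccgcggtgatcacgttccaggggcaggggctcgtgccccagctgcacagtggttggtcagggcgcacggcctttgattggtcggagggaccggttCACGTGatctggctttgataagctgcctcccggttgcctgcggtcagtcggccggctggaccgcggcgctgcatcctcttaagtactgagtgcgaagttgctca
Phka2 (chrX:160501912-160502161, plus strand): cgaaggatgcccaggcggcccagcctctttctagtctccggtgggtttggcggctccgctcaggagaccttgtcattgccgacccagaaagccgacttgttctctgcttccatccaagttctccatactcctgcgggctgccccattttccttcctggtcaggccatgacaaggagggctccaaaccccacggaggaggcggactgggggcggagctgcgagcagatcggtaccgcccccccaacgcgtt
The Ppp1r3g stretch holds 1 match, TGACG at 40 to 36 bases before the start, a motif found in 17.8% of all 32851 promoter windows of this length. The Ppp1r3c stretch holds 1 match, CACGTG at 104 to 99 bases before the start, found in 6.02% of windows. The Phka2 stretch holds 0 matches to these 5 motifs. Among all windows AGGTCA was found in 14.0%, GTAAACA in 3.17% and TATAAA in 12.4%. No match overlapped another in these 3 stretches. Of the 9 genes 7 have an entry in the RefSeq promoter table.

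Among the PP1 targeting subunits, Ppp1r3g had a pattern of its own: it was high in 3 groups and low in fed wild type. Its log2 intensity was 12.51, 12.87 and 11.27 in fasted knockout, 11.61, 12.57 and 12.27 in fasted wild type, 11.32 and 12.83 in fed knockout, and 6.41 and 5.96 in fed wild type. The lowest of the other 8 arrays, fasted knockout replicate 3, lay far above both fed wild type arrays, and the 3 high groups overlapped one another. On the linear scale the group means were 5268 units in fasted knockout, 4712 in fasted wild type, 4912 in fed knockout and 73.8 in fed wild type. Both fed wild type arrays lay above their array medians of 5.44 and 5.54. The deposited table gives no background level, and Pml on the knockout arrays read 6.05 to 6.91, close to these values. If the fed wild type signal was background, the differences against it are lower bounds. Because earlier results of these data had singled out Ppp1r3g, its differences are described without p-values.

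The fasting difference of Ppp1r3g was 0.15 on the log2 scale in knockout (95% confidence interval -1.04 to 1.33), against 5.96 in wild type (4.78 to 7.15). Knockout minus wild type was 0.07 in fasted liver (-0.99 to 1.13) and 5.88 in fed liver (4.59 to 7.18). Both fed knockout arrays lay within the range of the fasted arrays. The fed knockout arrays differed between themselves by more than the fasted wild type arrays did. Leaving out fed knockout replicate 1 gave a fed difference of 6.64 and leaving out replicate 2 gave 5.13. The fasting difference in knockout was -0.61 and 0.90 under the same omissions. Without fasted knockout replicates 1 and 2 the fasting difference in knockout was -0.80 and the fasted genotype difference -0.88.

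Likeness to Ppp1r3g was ranked by Pearson correlation across the 10 arrays, within the 13942 genes that passed a filter on dim probe sets. Genes with provisional or family names, such as Gm, LOC, Rik, Mir, Olfr or Vmn symbols, were dropped before ranking. A dropped gene could therefore be more alike than those listed. The highest of the genes ranked were Il1rn (r = 0.96), Cpsf4l (0.96), Abcc3 (0.95), Efna5 (0.95) and Arhgef26 (0.94). Il1rn, the interleukin-1 receptor antagonist, averaged 7.71 ± 0.39 in fasted knockout, 7.85 ± 0.20 in fasted wild type (SD, n = 3 each), 7.75 ± 0.58 in fed knockout and 5.94 ± 0.39 in fed wild type (SD, n = 2 each). Abcc3, a basolateral exporter of conjugated bile acids and drugs, averaged 10.58 ± 0.09 in fasted knockout, 10.56 ± 0.10 in fasted wild type (SD, n = 3 each), 10.58 ± 0.02 in fed knockout and 9.87 ± 0.20 in fed wild type (SD, n = 2 each). The correlation rested in part on the fed wild type arrays, to a different degree for each gene: over the other 8 arrays it was 0.73 for Il1rn, 0.29 for Cpsf4l, 0.30 for Abcc3, 0.42 for Efna5 and 0.62 for Arhgef26. These values share arrays and are a description.

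**Figure D1:**
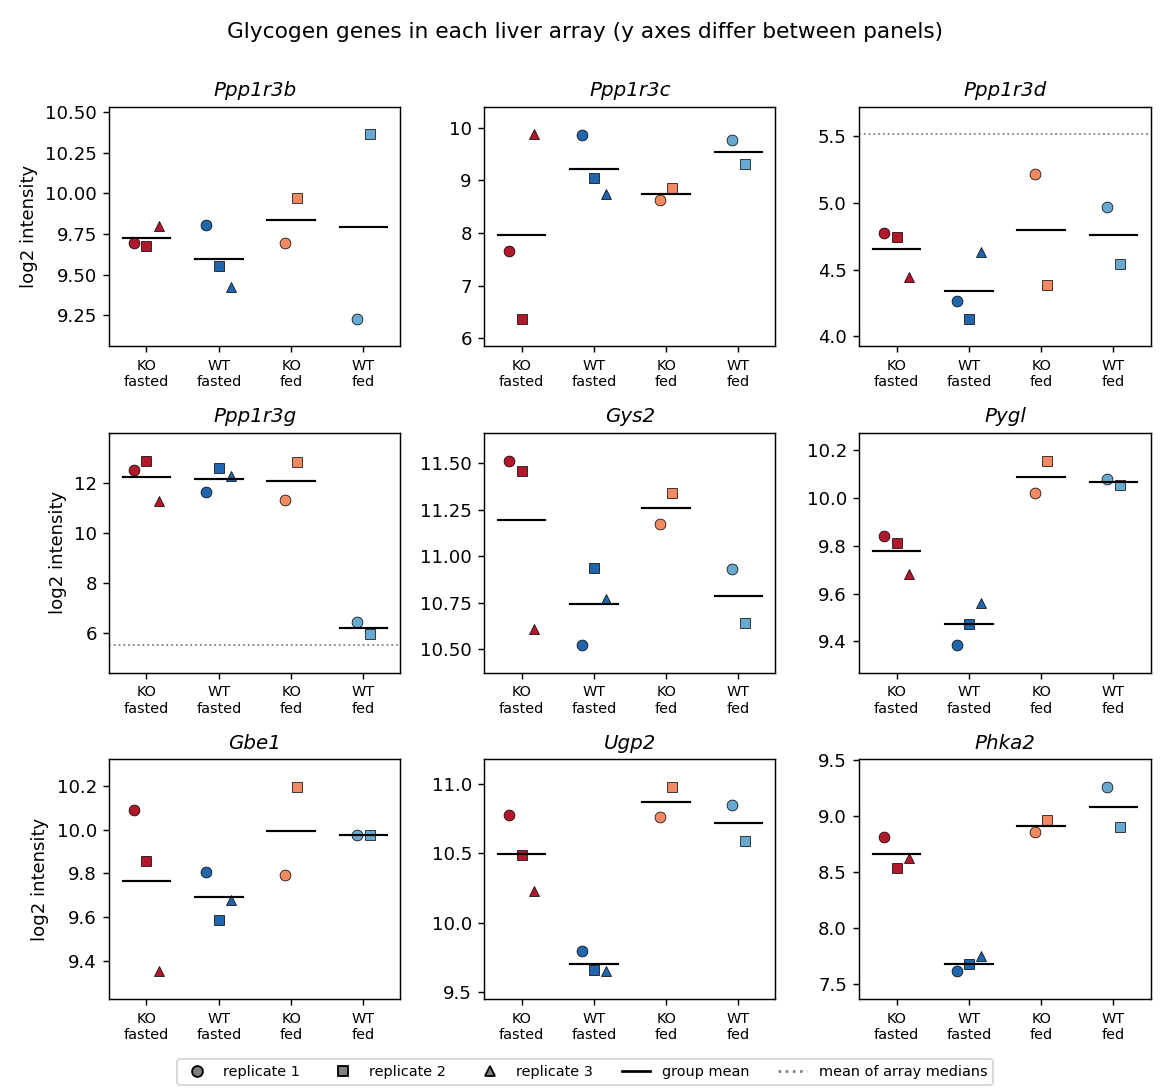
Log2 intensity (y axis, different in each panel) of the 9 glycogen genes on each of 10 arrays, with groups along the x axis, symbols for replicate numbers, black bars for group means and, for Ppp1r3d and Ppp1r3g, a dotted line at the mean of the array medians. Ppp1r3g was low in fed wild type alone (6.41 and 5.96), Phka2 and Ugp2 were lowest in fasted wild type, and Ppp1r3c and Gys2 split the fasted knockout arrays.

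Ppp1r3c split the fasted knockout arrays. It was 7.66, 6.37 and 9.88 in fasted knockout, 9.86, 9.05 and 8.74 in fasted wild type, 8.62 and 8.86 in fed knockout, and 9.77 and 9.32 in fed wild type. Fasted knockout replicates 1 and 2 were the lowest of the 10 arrays and replicate 3 the highest, so that the group spanned the whole range of the gene. No contrast was called for Ppp1r3c with all arrays. The fasted knockout minus wild type difference was -1.25 (SE 0.70, adjusted p = 0.277). Without fasted knockout replicate 3 it was -2.20 (adjusted p = 0.0135), and without replicates 1 and 2 it was 0.66 (adjusted p = 0.422). The sign of the genotype difference of this gene in fasted liver therefore hung on which fasted knockout arrays were counted. The fed knockout arrays both lay below the fed wild type arrays (difference -0.80, SE 0.86, adjusted p = 0.865).

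Among the genes ranked, with the same symbols dropped, the 5 most like Ppp1r3c were Qsox1 (r = 0.94 over 10 arrays), Exosc3 (0.92), Zfp46 (0.90), Immp1l (0.90) and Avpr1a (0.90). Avpr1a is the hepatic vasopressin receptor. Without fasted knockout replicates 1 and 2 the values over 8 arrays were 0.72, 0.72, 0.31, 0.65 and 0.62 in the same order. The likeness therefore rested in part on these arrays.

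Ppp1r3b did not separate the groups. It was 9.70, 9.68 and 9.80 in fasted knockout, 9.80, 9.56 and 9.43 in fasted wild type, 9.69 and 9.97 in fed knockout, and 9.23 and 10.36 in fed wild type. The fed wild type arrays were the lowest and the highest of all 10. The dimmer probe set showed the same split, with 7.47 and 8.68 in fed wild type and values in between on the other 8 arrays. The fasting difference in wild type was -0.20 (SE 0.27, adjusted p = 0.642) with all arrays. It was -0.77 (adjusted p = 0.0326) without fed wild type replicate 1 and 0.37 (adjusted p = 0.206) without replicate 2. Ppp1r3d, a targeting subunit of wide tissue distribution, lay between 4.13 and 5.21 and below the median of its array on all 10 arrays. It did not pass the filter and was not tested.

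Of the 9 genes 8 passed the filter, each above the array median on all 10 arrays, and with Ppp1r3g described apart the counts that follow are over 7. Calls are those with adjusted p under 0.05 in a limma fit of all 13942 genes. Fasted against fed wild type called 3 of 7, Pygl, Ugp2 and Phka2, all lower. Of all genes 21.4% were called, 13.2% lower and 8.23% higher. The median difference of the 7 was -0.33, against -0.02 over all genes. The fasted and fed arrays did not overlap for 4 of the 7, the other being Gbe1, beside 52.7% of all genes. In knockout the fast called 0 of 7 in limma (2 at an unadjusted p under 0.05), beside 1.68% of all genes (0.811% higher and 0.868% lower), with a median of -0.26 against 0.01 over all genes. The arrays did not overlap for 2 of the 7, Pygl and Phka2, beside 36.8% of all genes.

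Of the 7 genes Phka2 had the largest fasting decrease in wild type. It was 8.81, 8.54 and 8.63 in fasted knockout, 7.61, 7.68 and 7.75 in fasted wild type, 8.86 and 8.97 in fed knockout, and 9.26 and 8.90 in fed wild type. The 3 fasted wild type arrays stood below all the others with a gap to the nearest that was wider than the spread within any group. The fasting difference was -0.26 in knockout (SE 0.13, adjusted p = 0.332) and -1.40 in wild type (SE 0.13, adjusted p = 0.000411), a 2.64-fold decrease in wild type. Fasted knockout was higher than fasted wild type by 0.98 (SE 0.12, adjusted p = 0.00443), or by 0.94 (adjusted p = 0.0727) without fasted knockout replicates 1 and 2. The fed groups overlapped (-0.17, SE 0.15, adjusted p = 0.835).

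The difference between the fasting differences of Phka2, knockout minus wild type, was 1.14 (SE 0.19, adjusted p = 0.0278). It was the only 1 of the 7 called for this interaction in the limma fit with all arrays, beside 2.11% of all genes (1.32% higher and 0.789% lower). Fasted knockout replicate 3, whose Dbp and Arntl levels lay close to fasted wild type, had a Phka2 level of 8.63 and lay with the other fasted knockout arrays. Not every clock gene of that array lay with fasted wild type: Cry1 was 6.74 there and 7.97 to 8.35 in fasted wild type. Without replicates 1 and 2 the interaction was 1.11 (adjusted p = 0.0865), nearly the same size, while the call was lost. That fit rests on a single fasted knockout array, which is assumed to vary like the other groups. The call was also lost when fed wild type replicate 1, fed knockout replicate 1 or 2, any fasted wild type array, or fasted knockout replicate 1 was left out, with differences between 0.97 and 1.32 and adjusted p up to 0.104 over all 19 alternatives.

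Ugp2 followed Phka2 in wild type and lay in between in fasted knockout. It was 10.78, 10.49 and 10.23 in fasted knockout, 9.79, 9.66 and 9.65 in fasted wild type, 10.76 and 10.98 in fed knockout, and 10.85 and 10.59 in fed wild type. No other array was as low as the 3 fasted wild type arrays. Next above them was fasted knockout replicate 3. The fasting difference was -0.37 in knockout (SE 0.16, adjusted p = 0.255) and -1.02 in wild type (SE 0.16, adjusted p = 0.00296), a 2.02-fold decrease in wild type. In knockout it was -0.24 (adjusted p = 0.488) without fasted knockout replicate 3 and -0.64 (adjusted p = 0.0988) without replicates 1 and 2. Fasted knockout exceeded fasted wild type by 0.79 (SE 0.15, adjusted p = 0.0129), or by 0.52 (adjusted p = 0.160) without fasted knockout replicates 1 and 2. The interaction was 0.65 (SE 0.23, adjusted p = 0.164) and was not called.

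Pygl fell in fasted wild type too. It was 9.84, 9.81 and 9.68 in fasted knockout, 9.38, 9.47 and 9.56 in fasted wild type, 10.02 and 10.15 in fed knockout, and 10.08 and 10.05 in fed wild type. Fasted arrays lay below fed arrays in both genotypes, and fasted wild type lay below fasted knockout with no overlap. The fasting difference was -0.31 in knockout (SE 0.11, adjusted p = 0.158) and -0.59 in wild type (SE 0.11, adjusted p = 0.00456), a 1.51-fold decrease. Fasted knockout minus fasted wild type was 0.31 (SE 0.09, adjusted p = 0.0648), which passed the threshold with a stricter filter or with trend and robust moderation, the lowest adjusted p being 0.0288. It was 0.21 (adjusted p = 0.445) without fasted knockout replicates 1 and 2. The interaction was not called (0.28, adjusted p = 0.318), so a different fall of Pygl in the genotypes is not shown.

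Gys2 followed the same division of the fasted knockout arrays as Ppp1r3c, in the opposite direction. It was 11.51, 11.46 and 10.61 in fasted knockout, 10.52, 10.94 and 10.77 in fasted wild type, 11.17 and 11.34 in fed knockout, and 10.93 and 10.64 in fed wild type. Fasted knockout replicates 1 and 2 and both fed knockout arrays were the 4 highest, and replicate 3 was the second lowest, above fasted wild type replicate 1. The fasting difference was -0.06 in knockout (adjusted p = 0.918) and -0.04 in wild type (adjusted p = 0.928), with 95% confidence intervals of -0.63 to 0.50 in knockout and -0.61 to 0.53 in wild type. The knockout value depended on the arrays counted: it was 0.23 (adjusted p = 0.535) without fasted knockout replicate 3 and -0.65 (adjusted p = 0.144) without replicates 1 and 2. The fasted genotype difference was 0.45 (SE 0.23, adjusted p = 0.225). It was 0.74 (adjusted p = 0.0183) without fasted knockout replicate 3 and -0.13 (adjusted p = 0.770) without replicates 1 and 2.

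Gbe1 was not called in any of the 5 contrasts. It was 10.09, 9.86 and 9.35 in fasted knockout, 9.81, 9.59 and 9.68 in fasted wild type, 9.79 and 10.19 in fed knockout, and 9.98 on both fed wild type arrays. Fasted and fed arrays did not overlap in wild type, but the fasting difference of -0.29 was not called (SE 0.20, adjusted p = 0.353). In knockout it was -0.23 (SE 0.20, adjusted p = 0.582), with fasted knockout replicate 3 the lowest of the 10 arrays. Without that array it was -0.02 (adjusted p = 0.967), and without replicates 1 and 2 it was -0.64 (adjusted p = 0.122).

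**Figure D2:**
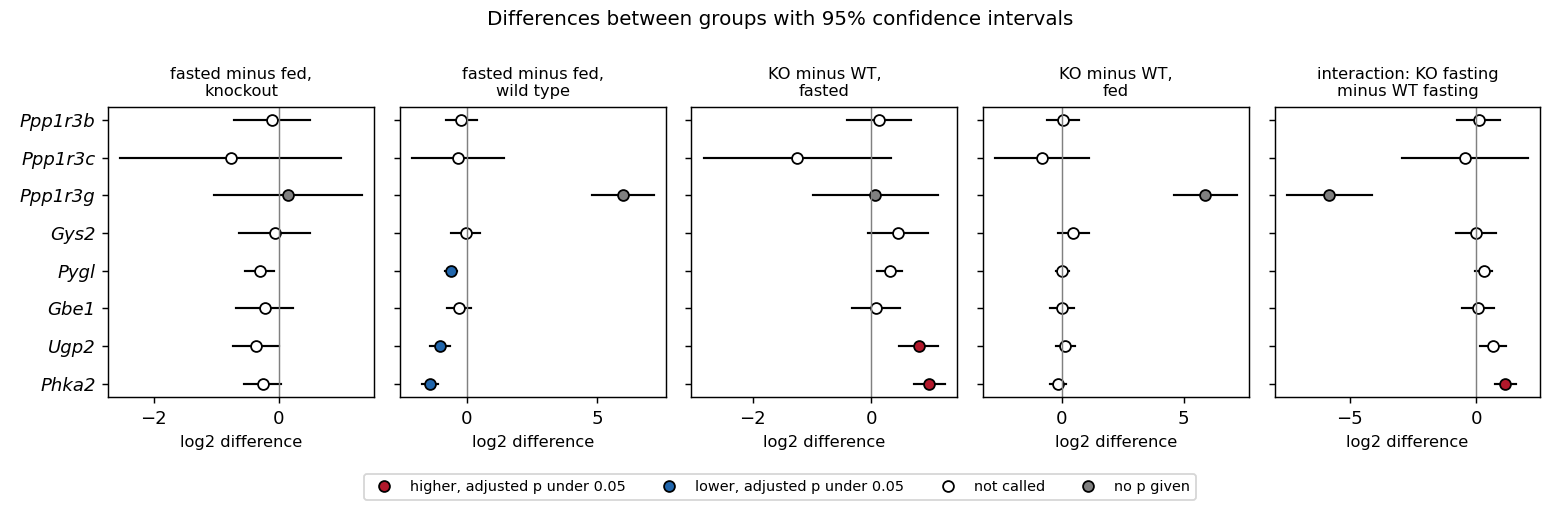
Log2 difference (x axis, different range in each panel) with its 95% confidence interval for 8 glycogen genes in 5 comparisons, with filled colours for genes called by limma, white for genes not called and grey for Ppp1r3g, which is given without p. Pygl, Ugp2 and Phka2 were lower in fasted than in fed wild type, and fasted knockout was higher than fasted wild type for Ugp2 (0.79) and Phka2 (0.98).

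**Figure D3:**
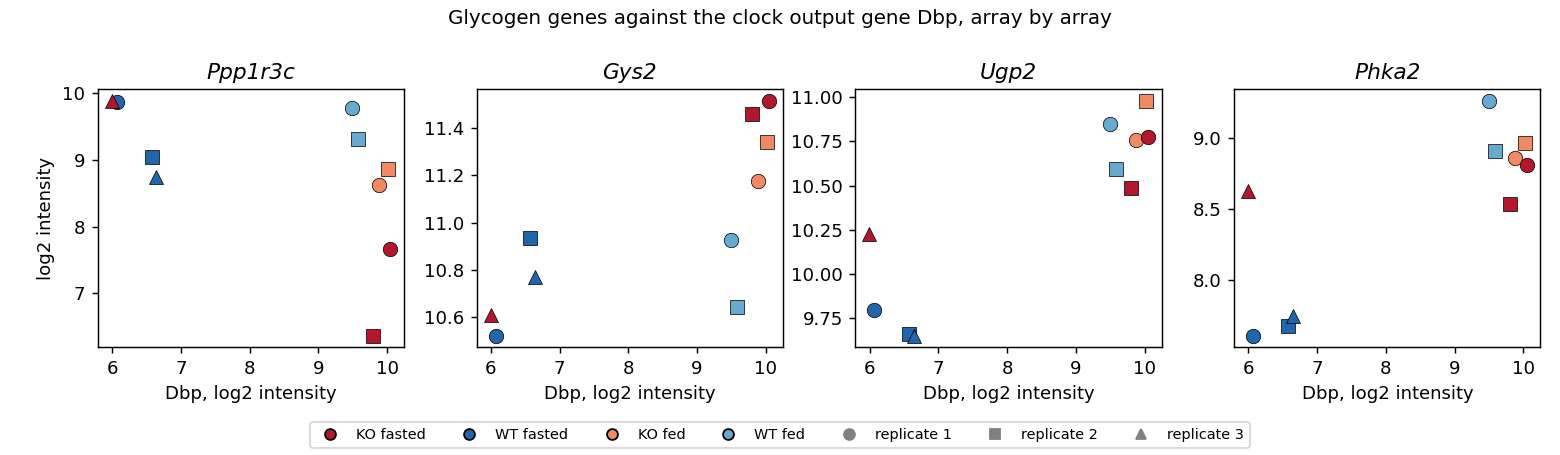
Log2 intensity of Ppp1r3c, Gys2, Ugp2 and Phka2 (y axes) against that of the clock output gene Dbp (x axis) on the 10 arrays, coloured by group with symbols for replicate numbers. Fasted knockout replicate 3 (Dbp 6.00) lay among fasted wild type arrays for Gys2 (10.61), above them for Ugp2 (10.23) and Phka2 (8.63), and at the top for Ppp1r3c (9.88).

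Between genotypes, fed knockout against fed wild type called 0 of the 7 genes in limma (0 also at an unadjusted p under 0.05), where 0.0861% of all genes were called (0.0574% higher and 0.0287% lower). The arrays did not overlap for Ppp1r3c and Gys2, 2 of 7, beside 39.9% of all genes. In fasted liver knockout was higher for 2 of 7, Ugp2 and Phka2, beside 11.1% of all genes called in either direction (6.68% higher and 4.43% lower), and the median difference was 0.31 against 0.01 over all genes. The arrays did not overlap for 3 of the 7, Pygl, Ugp2 and Phka2, beside 33% of all genes. The count was 4 without fasted knockout replicate 3, where Ppp1r3c (lower) and Gys2 (higher) were called as well. It was 0 without replicates 1 and 2 (2 at an unadjusted p under 0.05), when limma called 6 of all 13942 genes. These contrasts share arrays with the fasting contrasts: the fasted wild type arrays enter both the wild type fasting difference and the fasted genotype difference.

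Few markers of other cell types were called, and their lists did not move as one. The summed intensity of 6 macrophage markers was 2930 to 3393 in fasted knockout, 2488 to 2578 in fasted wild type, 2734 to 3012 in fed knockout and 2621 to 3304 in fed wild type, lowest in the group where Phka2 and Ugp2 were lowest. Of these 6 markers 1 was called in wild type fasting, beside 21.4% of all genes, and 2 in fasted knockout against wild type, beside 11.1%. Adgre1 fell with fasting in wild type (-0.57, adjusted p = 0.00640), and Adgre1 and Cd5l were higher in fasted knockout than in fasted wild type (0.54 and 0.65). Clec4f and Marco, in the same list, differed by -0.02 and -0.03 in that comparison and were not called. Timd4 (0.52) and Vsig4 (0.30) were higher there without a call, and the median difference of the list was 0.41. The 6 hepatocyte markers had 0 calls in the 5 contrasts by limma, with sums of 31470 to 34280 in fasted knockout, 33350 to 34280 in fasted wild type, 32580 to 34260 in fed knockout and 32660 to 33110 in fed wild type. Of the stellate markers Lrat fell (-1.04) and Hand2 rose (0.63) in fasted wild type, and of the sinusoidal endothelial markers Pecam1 rose (0.45), making 2 of 6 and 1 of 6 called. In the endothelial list Stab2 (-0.05), Clec4g (-0.02), Kdr (0.06), Oit3 (0.23) and Lyve1 (1.23) were not called. Their part in the differences of the glycogen genes was not tested. In whole liver RNA fewer cells of a type and less RNA per cell cannot be told apart.

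The wider pathway was followed with a list of 37 other symbols for glycogen synthesis, breakdown, PP1, regulators and glucose phosphate handling, of which 27 were tested. Another 5 were dim, 2 share a probe set with another gene and 3 have no row under the symbol used. In fasted against fed wild type 8 were lower and 1 higher (median -0.09), 9 of 27 beside 21.4% of all genes. In knockout the fast called 0 of 27 in limma (3 at an unadjusted p under 0.05), beside 1.68%. In fasted liver, knockout against wild type called 2 higher and 1 lower (median 0.10), beside 11.1%, and in fed liver 0 (0 also at an unadjusted p under 0.05), beside 0.0861%. The interaction was called for 1 of 27, higher (median 0.16), beside 2.11% of all genes.

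Other phosphorylase kinase subunits fell in fasted wild type as well. Phka1, the muscle alpha subunit, fell by 0.51 (adjusted p = 0.0150), Phkb, the beta subunit, by 0.55 (adjusted p = 0.0186) and Phkg2, the catalytic gamma subunit of liver, by 0.59 (adjusted p = 0.0326). Another subunit, Phkg1, was dim and not tested. All 4 tested subunits of the kinase, Phka2 included, were called lower, beside 13.2% of all genes. These 4 values share arrays, and a joint change of the kinase was not tested. In knockout the same differences were -0.19 for Phka1, -0.28 for Phkb and 0.24 for Phkg2, with no call. Phkg2 levels were 9.31, 8.76 and 9.13 in fasted knockout, 8.54, 8.74 and 8.37 in fasted wild type, 8.83 and 8.82 in fed knockout, and 9.09 and 9.18 in fed wild type. Fasted wild type lay below every other array for this gene, by a small margin to fasted knockout replicate 2. Without fed wild type replicate 2 the calls of all 3 genes were lost. Over 20 alternatives Phka1 lost its call in 1, Phkb in 3 and Phkg2 in 6, with adjusted p up to 0.101, 0.126 and 0.135.

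On the synthesis side Gyg, glycogenin, which primes new glycogen particles, was the other gene with a called interaction. It was 8.79, 8.37 and 8.61 in fasted knockout, 7.37, 7.71 and 7.72 in fasted wild type, 8.14 and 8.20 in fed knockout, and 8.33 and 8.20 in fed wild type. Fasted knockout lay above every other array and fasted wild type below every other. The fasting difference was 0.42 in knockout (SE 0.15, adjusted p = 0.177) and -0.67 in wild type (SE 0.15, adjusted p = 0.0134). Fasted knockout exceeded fasted wild type by 0.99 (SE 0.13, adjusted p = 0.00552), or by 1.01 (adjusted p = 0.0708) without fasted knockout replicates 1 and 2. In wild type the call ended when fed replicate 1 was left out (adjusted p = 0.0945). The interaction was 1.09 (SE 0.21, adjusted p = 0.0426) and kept its direction in all 19 alternatives, of which 12 lost the call with adjusted p up to 0.130, the fit with the replicate number as a block among them (1.09, adjusted p = 0.0709). Without fasted knockout replicates 1 and 2 it was 1.11 (adjusted p = 0.0935). Pgm2, a phosphoglucomutase family member, fell in fasted wild type by 0.52 (adjusted p = 0.0158), a call lost in 2 of 20 alternatives, and Gys1, the muscle glycogen synthase, was not called (-0.10, adjusted p = 0.705).

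Among regulators, Epm2a fell and Gsk3b rose in fasted wild type. Epm2a, the glycogen phosphatase laforin, was 7.32, 7.18 and 7.07 in fasted knockout, 6.61, 6.22 and 5.56 in fasted wild type, 7.33 and 7.41 in fed knockout, and 7.33 and 7.05 in fed wild type. Fasted wild type was again below every other array. The fasting difference in wild type was -1.06 (SE 0.25, adjusted p = 0.0156), and fasted knockout exceeded fasted wild type by 1.06 (SE 0.22, adjusted p = 0.0198). The first call was lost in 2 of 20 alternatives, without fed wild type replicate 1 and in a fit of the compared groups alone. The second was lost in 3, with no filter, on omitting fasted knockout replicate 1, and on omitting replicates 1 and 2 of that group (0.94, adjusted p = 0.219). Gsk3b, the kinase that phosphorylates and restrains glycogen synthase, was higher in fasted wild type (0.47, SE 0.12, adjusted p = 0.0194) and fasted knockout lay below fasted wild type (-0.50, SE 0.10, adjusted p = 0.0190). Each call was lost in 4 of 20 alternatives. Leaving out either fed wild type array, or fasted wild type replicate 2 or 3, ended the fasting call. Leaving out fasted wild type replicate 2 or 3, fasted knockout replicate 1, or fasted knockout replicates 1 and 2 (-0.49, adjusted p = 0.135) ended the genotype call. The interaction was called for neither, with 0.89 for Epm2a (adjusted p = 0.203) and -0.45 for Gsk3b (adjusted p = 0.176). The PP1 catalytic subunits Ppp1ca, Ppp1cb and Ppp1cc and the targeting subunit Ppp1r3e had 0 calls among 4 in each of the 5 contrasts by limma. Of all genes 0.0861% to 21.4% were called in these contrasts, so 0 of 4 does not show that PP1 was unchanged. Ppp1cc was at an unadjusted limma p under 0.05 in knockout fasting (0.28, adjusted p = 0.238).

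**Figure D4:**
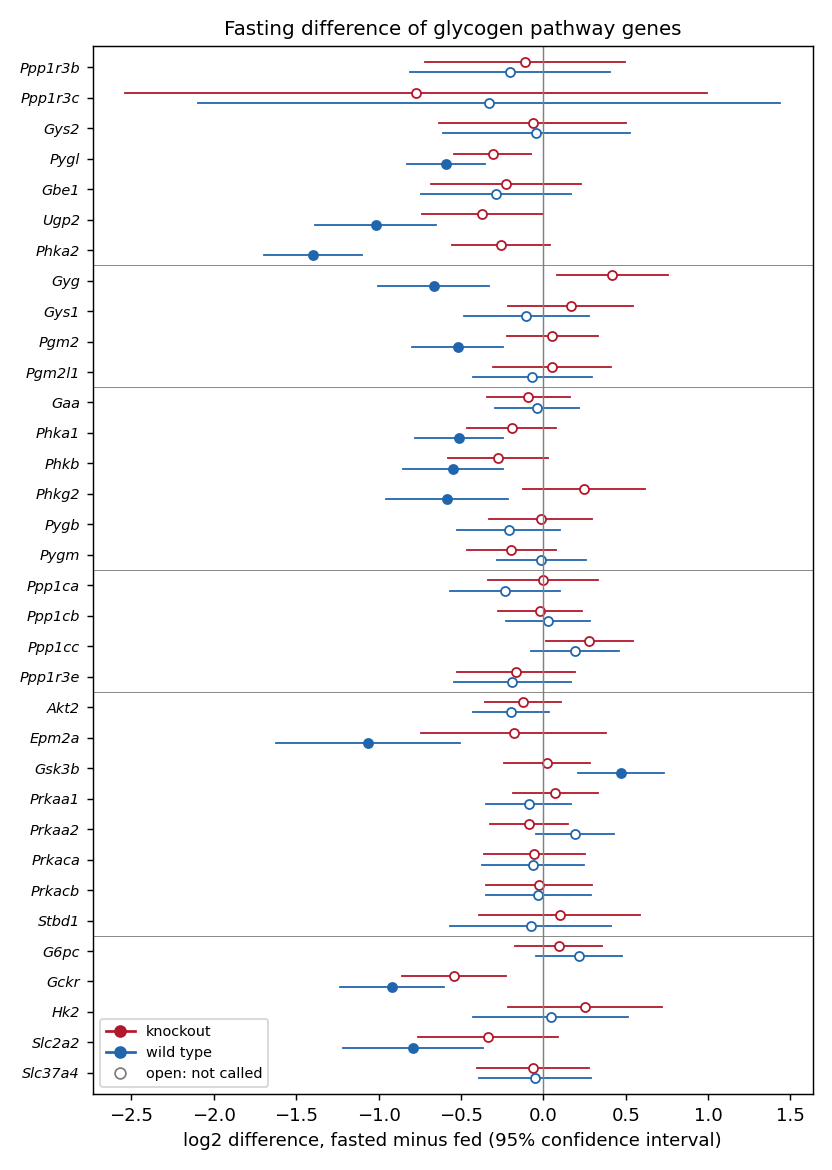
Fasted minus fed log2 difference (x axis) with its 95% confidence interval for 7 glycogen genes and 27 further pathway genes (y axis), with knockout in red above wild type in blue for each gene and filled points for genes called by limma. In wild type 3 of the 7 and 9 of the 27 were called, Gsk3b alone upward, and in knockout 0 of either.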

How the data were processed

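Liver RNA of 10 samples was measured on 1-colour arrays. The authors' deposited table holds 1 linear normalized intensity per probe set and array, and Affymetrix Expression Console with RMA made it, per the submitters' processing notes. Tool versions and the build were not named in those notes. Each array holds 228 to 489 values under 0.1, uncommon after RMA, which leaves the summary step uncertain. Log2 was taken with no further normalization. Of 41345 probe sets the platform table gives 23521 a single symbol, 1814 several and 16010 none. Probe sets had to exceed their array's 50th percentile on 2 or more arrays, and each of the 13942 genes left was represented by its brightest one.

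All 10 arrays entered one linear model of 4 groups in limma 3.58.1 (R 4.3.3) with empirical Bayes moderation (prior df 3.63, residual df 6), with 5 contrasts and Benjamini-Hochberg adjustment over all genes of a contrast. The script was tested on simulated data. The number of arrays limits the precision. The labels name no batch. The glycogen genes, the lists and the tests were chosen with earlier results of these data known. Named were the 9 genes, up to 8 called pathway genes per contrast with the smallest p, the 5 genes most like Ppp1r3g, Ppp1r3b and Ppp1r3c, and Arntl, Dbp and Pml. Other pathway genes and markers were named after their values were seen. Cell type lists covered hepatocytes, macrophages, sinusoidal endothelium, stellate cells, cholangiocytes, skeletal muscle, adipocytes and pancreas. The last 4 lists, with 4, 3, 2 and 2 genes tested, had 0 calls by limma in any contrast. Of all genes 0.0861% to 21.4% were called, and lists this short cannot show an absence of change.

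Alternatives were centring, repeated quantile normalization, no filter, the mean of a gene's probe sets, a filter at the 70th percentile, the replicate number as a block, array weights, trend and robust moderation, a fit of the compared groups alone, omission of each array, and omission of fasted knockout replicates 1 and 2. Same-numbered arrays of fasted knockout and fasted wild type had deviations from their group means that correlated at 0.01 to 0.09, so equal numbers were not taken as pairs.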

Additional observations from a re-analysis of the deposited data

Results flagged for a closer look

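Phka2, the liver alpha subunit of phosphorylase kinase, was singled out because its fasting difference in knockout minus that in wild type was 1.14 on the log2 scale in the interaction test (adjusted p = 0.0278). Fasted knockout and fed knockout arrays differed by -0.26 and fasted wild type and fed wild type arrays by -1.40. Gyg, glycogenin, was singled out for the same reason, with 1.09 (adjusted p = 0.0426). Its fasting differences were 0.42 in knockout and -0.67 in wild type. For both genes all 3 fasted wild type arrays lay below all other arrays, and fasted knockout replicate 3 lay with the other fasted knockout arrays. Clock genes and macrophage markers also differed between fasted knockout and fasted wild type, and their part in these differences was not tested.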

How the results depend on the processing

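The count of called genes among the 7 stayed at 0 for fasting in knockout and for fed knockout against wild type, and at 3 or 4 for fasting in wild type, under all 20 alternatives. For fasted knockout against wild type the count was 2 and ranged from 2 to 4 when single arrays were left out, with 4 without fasted knockout replicate 3, and it was 0 without fasted knockout replicates 1 and 2. For the interaction it was 1 and ranged from 0 to 1 when single arrays were left out, and it was 0 with no filter on dim probe sets (2 at an unadjusted p under 0.05) and 0 without fasted knockout replicates 1 and 2 (3 at an unadjusted p under 0.05). With no filter 22180 genes were tested and the moderation was refitted over them. For the interaction 4 of these were called, against 294 of 13942 with the filter. The parts of the gene number and of the refit in the lost call were not separated. No called gene among the 7 reversed. With the replicate block the counts were 0 for fasting in knockout, 3 for fasting in wild type, 0 and 2 for the fed and fasted genotype contrasts and 1 for the interaction, the same as without it. Among named pathway genes the block ended the calls of the Gyg interaction (1.09, adjusted p = 0.0709) and of Phkg2 in wild type fasting (-0.56, adjusted p = 0.0848), and Slc2a2 in the fasted genotype contrast was called with it. The arrays were taken to share only a number. Between fasted knockout and fasted wild type, 1 of 3 numbers correlated best with itself. Between fasted and fed wild type 2 of 2 numbers did (0.08 and 0.09), and between fed knockout and fed wild type the correlation was -0.17. Each fed group has 2 arrays, whose deviations from their group mean are mirror images. Comparisons with a fed group therefore cannot decide whether equal numbers are pairs. Neither centring nor repeated quantile normalization shifted the all-gene median by 0.1 in any contrast. Ppp1r3g differences in wild type fasting lay between 5.74 and 6.23 over the 20 alternatives. Signal below the array median limits Ppp1r3d, which could not be tested.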

Other observations

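Of 5 tested genes for glucose and glucose phosphate handling 2 fell in fasted wild type, Slc2a2 and Gckr, beside 21.4% of all genes, and the median difference was -0.05. Slc2a2, the glucose transporter GLUT2, was 11.48, 11.45 and 10.83 in fasted knockout, 10.83, 10.63 and 10.53 in fasted wild type, 11.53 and 11.64 in fed knockout, and 11.52 and 11.38 in fed wild type. Fasted knockout replicate 3 was level with the highest fasted wild type array, while replicates 1 and 2 lay with the fed arrays. Its fasting difference was -0.34 in knockout (adjusted p = 0.370) and -0.79 in wild type (adjusted p = 0.0170), a call lost in 3 of 20 alternatives. Fasted knockout minus fasted wild type was 0.59 (adjusted p = 0.0530), 0.80 (adjusted p = 0.00669) without fasted knockout replicate 3 and 0.17 (adjusted p = 0.609) without replicates 1 and 2. Gckr, the regulatory protein that binds glucokinase, had a fasting difference of -0.54 in knockout (adjusted p = 0.0832) and -0.92 in wild type (adjusted p = 0.00233). G6pc, the catalytic subunit of glucose-6-phosphatase, was not called (0.09 in knockout, adjusted p = 0.712, and 0.22 in wild type, adjusted p = 0.221). Nor were Hk2, a hexokinase (0.04 in wild type), and Slc37a4, the glucose-6-phosphate transporter (-0.05 in wild type).

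Among the genes ranked, with the same symbols dropped as for Ppp1r3g, those most like Ppp1r3b over the 10 arrays were Ddx50 (r = 0.86), Zfp352 (0.85), Ppp1r14b (0.83), Cyb561 (0.83) and Snx19 (0.83). Over 8 arrays, without the fed wild type arrays, these values were 0.66, 0.58, 0.41, 0.68 and 0.64 in the same order. The genes were picked as the highest of all genes ranked, so the values are a description. Cyb561 lay between 5.10 and 5.65, close to the array medians of 5.44 to 5.57.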
